A study of Mus musculus with 6 samples.

Results

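The transcripts described here are those of 54 genes of the BMP and TGF-beta signaling pathways in cultured embryonic ureters of the mouse. The genes were listed by symbol and by role: 17 ligands, 10 receptors, 8 SMADs, 6 targets, 9 antagonists and 4 latent TGF-beta binding proteins. A gene was kept when it had at least 10 counts in at least 3 of the 6 samples, which held for 53 of the 54 genes, out of 56748 gene identifiers in all. Each of the 53 reached that minimum in all 6 samples and passed the filter on low counts of the test, so that no gene entered through the group in which it was higher. The ligand gene *Bmp8a* was left out with 2, 10 and 3 counts in the control and 6, 7 and 4 in the LiCl samples. Just inside the minimum lay *Ltbp2*, with 22 to 42 counts per sample, and *Fstl3*, with 13 to 43.

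Ureters of wildtype NMRI embryos were dissected at E12.5 and cultured for 18 h on Transwell membranes. The 3 control samples received water, and the 3 LiCl samples received LiCl at 15 mM. Lithium inhibits the kinase GSK3B and thereby activates canonical WNT signaling. Bulk RNA-Seq of stranded poly-A libraries was performed, and the comparison of the groups asks which transcripts change upon this treatment. LiCl acts on every cell of the explant and on other enzymes than GSK3B, and the sources do not say how many ureters went into a sample or whether replicates came from separate litters or cultures, so that p-values measure the spread between these samples only.

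BMP ligands bind complexes of type I and type II serine/threonine kinase receptors, which phosphorylate SMAD1, SMAD5 and SMAD9. TGF-beta and activin ligands act through their own receptors on SMAD2 and SMAD3, and SMAD4 is shared by both branches. BMPs are held back outside the cell by binding proteins such as Noggin, TGF-beta is secreted in a latent form that LTBPs tether to the matrix, and in the early ureter BMP4 from the mesenchyme is required for differentiation of smooth muscle and urothelium.

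Total counts per sample lay between 28473436 and 31266945 and overlapped between the groups, and mitochondrial transcripts took 1.34 to 1.45% of the counts in controls and 1.26 to 1.31% after LiCl. Markers of the labelled tissue were present in every sample: 8 mesenchymal markers summed to 2458 to 2738 CPM (counts relative to a common library size, scaled by TMM factors) in controls and to 2119 to 2210 CPM after LiCl, and 8 epithelial markers to 1171 to 1477 and 864 to 902 CPM. None of the markers was at 0 in all samples. Of the epithelial markers 6 fell and 1 rose, of the mesenchymal 3 fell and 2 rose, of 6 smooth muscle markers 4 fell, and 6 of 6 proliferation markers rose, with sums of 688 to 778 CPM in controls and 1322 to 1570 CPM after LiCl. Skeletal muscle transcripts set LiCl replicates 1 and 3 apart: 8 of them summed to 37.8 and 75.9 CPM there, to 9.20 CPM in LiCl replicate 2 and to 7.41 to 9.99 CPM in the controls. The parts that these cells or RNAs have in the results below were not tested, and in such bulk samples fewer cells of a type and less RNA per cell cannot be told apart.

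More of the pathway genes fell than rose after LiCl. In edgeR's quasi-likelihood test with Benjamini-Hochberg adjustment over all 18188 genes tested, 20 of the 53 genes were lower at an adjusted p under 0.05, 6 were higher and 27 did not pass. Of all genes tested, 22.4% were lower and 21.1% were higher by this rule, against 37.7% and 11.3% of the pathway genes. The genes that rose were the ligand genes *Bmp3*, *Bmp5* and *Gdf11*, the target genes *Id4* and *Msx1*, and the antagonist gene *Grem1*. With the additional minimum of a 2-fold change that the study used, *Bmp3* alone was higher and 5 genes were lower (*Gdf5*, *Inhbb*, *Tgfb1*, *Chrdl1* and *Fstl3*), while 2.74% of all genes were higher and 4.59% were lower. The CPM of the 3 LiCl samples lay above all 3 controls in 10 of the 53 genes and below all of them in 22, where 26.4% and 27.8% of all genes did so. The median log2 fold change was -0.08 over the 53 genes and -0.01 over all genes.

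By role, the median log2 fold change was 0.07 for the targets, -0.01 for the receptors, -0.05 for the ligands, -0.09 for the SMADs, -0.31 for the antagonists and -0.46 for the latent TGF-beta binding proteins. When LiCl replicates 1 and 3 were both left out, 6 of the 53 genes were higher and 13 were lower, and 18 of the 26 calls remained with the same direction. The 8 calls that did not remain were those of *Bmp4*, *Bmp5*, *Gdf5*, *Inhba*, *Tgfbr1*, *Smad1*, *Smad6* and *Smad9*, in a fit that rests on 1 LiCl sample, which is assumed to vary like the controls. All 8 kept their direction in it, with log2 fold changes close to or beyond those from all samples for *Bmp4*, *Bmp5*, *Gdf5* and *Smad1*, somewhat smaller ones for *Inhba*, *Smad6* and *Smad9*, and -0.09 in place of -0.17 for *Tgfbr1*. Under the same restriction 2014 of all genes were higher and 2117 were lower, down from 3844 and 4071.

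**Figure D1:**
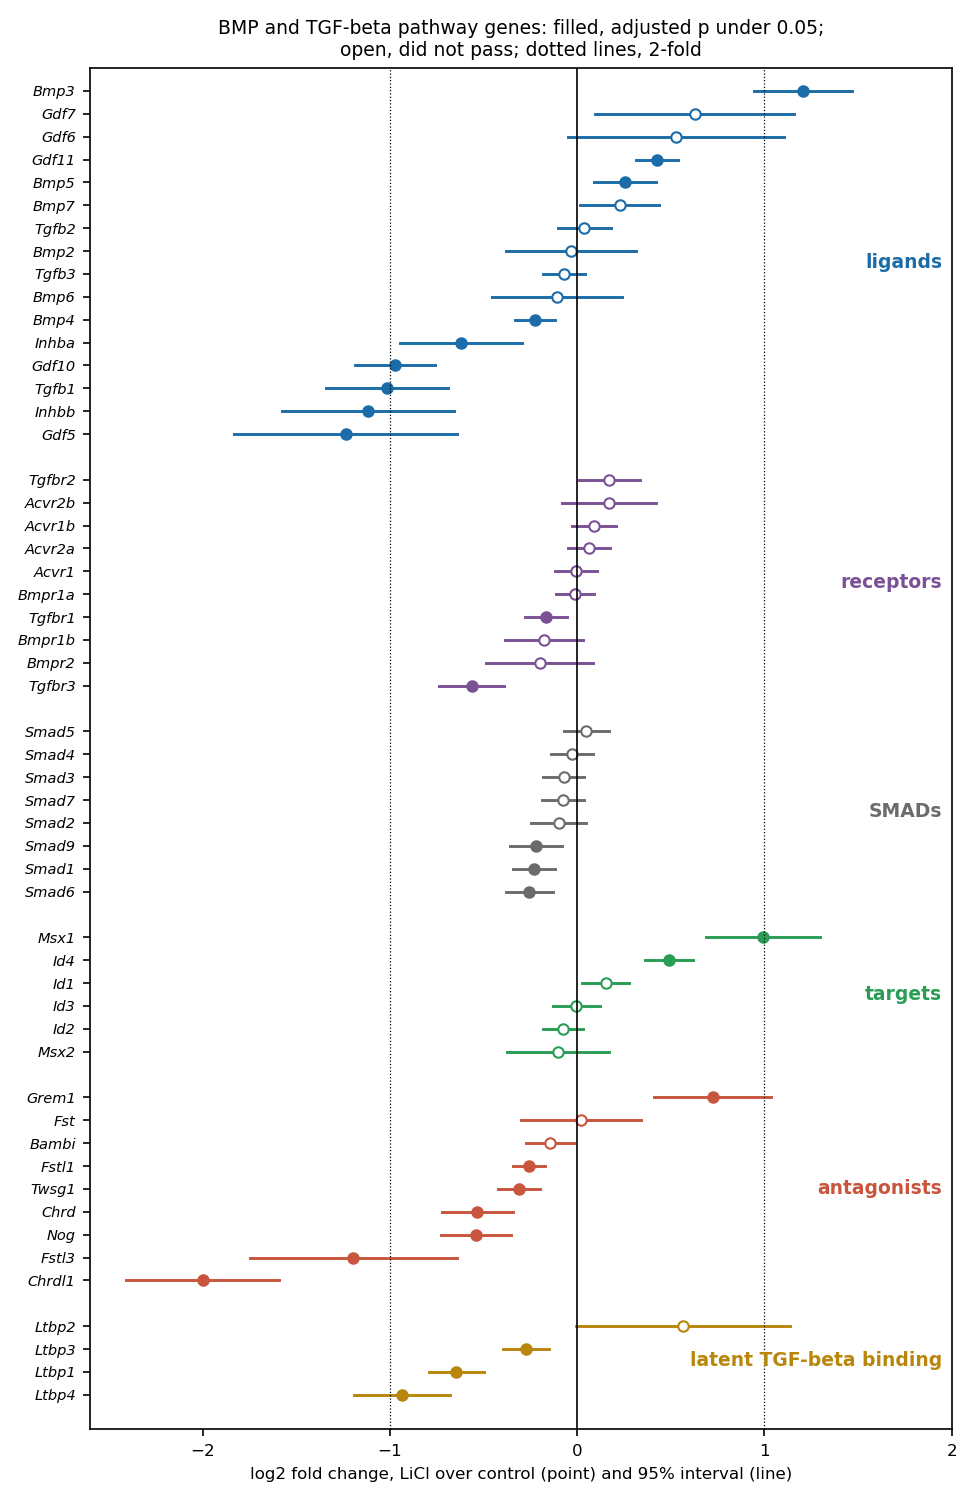
Log2 fold change of LiCl over control (x axis) for the 53 tested genes, grouped by role; points are the edgeR estimates, lines their 95% intervals, filled points have an adjusted p under 0.05 and dotted lines mark a 2-fold change. *Bmp3* at 1.20 is the only filled point beyond the right dotted line, and *Chrdl1* at -2.00 lies farthest to the left.

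Promoter sequences are shown for the genes that fell by the 2-fold rule and have an entry in the RefSeq table, *Inhbb*, *Tgfb1* and *Fstl3*. They are also shown for the 3 called genes with the largest rise among those with an entry, *Msx1*, *Grem1* and *Id4*. Each run is the 250 bases before the transcription start, 5′ to 3′ on the gene's strand, from RefSeq on GRCm38.p6, an older build than the GRCm39 of the counts. *Msx1* is shown from chr5:37824586-37824835 (minus strand), *Grem1* from chr2:113758649-113758898 (minus), *Id4* from chr13:48260866-48261115 (plus), *Tgfb1* from chr7:25686752-25687001 (plus), *Inhbb* from chr1:119422249-119422498 (minus) and *Fstl3* from chr10:79777024-79777273 (plus). Capitals mark the word GGCGCC, a GC-rich word that BMP-activated SMADs can bind.
Msx1: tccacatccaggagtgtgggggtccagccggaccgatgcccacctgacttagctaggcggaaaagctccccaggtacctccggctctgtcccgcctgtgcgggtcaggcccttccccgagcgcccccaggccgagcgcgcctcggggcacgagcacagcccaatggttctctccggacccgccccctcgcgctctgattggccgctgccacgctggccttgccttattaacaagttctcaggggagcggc
Grem1: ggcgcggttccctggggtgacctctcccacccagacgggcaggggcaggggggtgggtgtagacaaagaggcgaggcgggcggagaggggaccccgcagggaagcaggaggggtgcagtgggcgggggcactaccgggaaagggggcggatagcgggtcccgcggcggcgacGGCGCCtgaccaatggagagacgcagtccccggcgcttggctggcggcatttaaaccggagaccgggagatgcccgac
Id4: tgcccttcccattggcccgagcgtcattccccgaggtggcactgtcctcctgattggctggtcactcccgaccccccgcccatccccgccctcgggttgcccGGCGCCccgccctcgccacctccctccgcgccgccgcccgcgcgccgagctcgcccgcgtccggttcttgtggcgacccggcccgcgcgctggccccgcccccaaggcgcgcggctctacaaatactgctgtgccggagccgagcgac
Tgfb1: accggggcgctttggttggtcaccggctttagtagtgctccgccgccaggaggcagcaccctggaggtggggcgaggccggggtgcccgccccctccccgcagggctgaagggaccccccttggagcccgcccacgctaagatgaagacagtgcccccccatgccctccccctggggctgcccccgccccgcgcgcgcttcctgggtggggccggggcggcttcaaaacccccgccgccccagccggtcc
Inhbb: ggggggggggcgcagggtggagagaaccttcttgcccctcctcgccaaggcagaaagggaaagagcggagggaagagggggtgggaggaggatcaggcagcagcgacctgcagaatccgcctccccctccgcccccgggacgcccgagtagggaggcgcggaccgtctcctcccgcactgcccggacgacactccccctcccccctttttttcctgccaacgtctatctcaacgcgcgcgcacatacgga
Fstl3: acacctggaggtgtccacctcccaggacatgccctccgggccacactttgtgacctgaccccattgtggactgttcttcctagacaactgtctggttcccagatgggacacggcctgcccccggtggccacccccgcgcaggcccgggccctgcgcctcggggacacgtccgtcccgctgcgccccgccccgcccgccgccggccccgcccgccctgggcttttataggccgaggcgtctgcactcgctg

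The windows of 39 of the 54 genes were in the table, in 47 windows because some genes have several starts. On either strand, GGCGCC was found in 11 of the 47 windows (23.4%), which belong to 10 genes, and in 9.59% of all 32851 windows in the table. Among the sequences shown it stood at position -148 of *Id4* and at -78 of *Grem1*, counted back from the start site. The TCF/LEF words CTTTGAA or CTTTGAT or CTTTGTA or CTTTGTT, which share no overlap with GGCGCC, were found in 8 of the 47 windows (17.0%) and in 14.8% of all windows. None of the 6 sequences shown held a TCF/LEF word, and the genes that did were *Tgfb2*, *Bmpr1b*, *Tgfbr1*, *Bmp8a*, *Acvr2b* and *Inhba*. These matches are descriptions of letters in short windows, several windows of the same gene overlap, and the shares were not matched for base composition.

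Among the ligands, single genes moved in both directions, and the summed level was slightly higher in every LiCl sample than in any control. The FPKM (fragments relative to gene length and library size, which allow levels to be compared between genes) of the 17 ligand genes summed to 195 to 196 in the controls and to 198 to 203 in the LiCl samples. In that scale *Bmp4* had the highest level of the ligands (71.9 ± 3.88, SD, n = 3, in controls), followed by *Tgfb3* (40.6 ± 0.269), *Gdf11* (21.2 ± 0.942) and *Tgfb2* (20.2 ± 1.55). *Gdf11* and *Tgfb2* did not differ beyond their SDs, whereas *Bmp4* exceeded *Tgfb3* and *Tgfb3* exceeded *Gdf11* by more than theirs. Of 16 tested ligand genes, 3 rose (18.8%), 6 fell (37.5%) and 7 did not pass, where 21.1% of all genes rose and 22.4% fell.

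*Bmp3*, which encodes a BMP that does not activate the canonical BMP receptors productively and can oppose other BMPs, was measured at 53.6, 44.1 and 41.9 CPM in controls 1 to 3 and at 123, 93.0 and 105 CPM in LiCl replicates 1 to 3. All LiCl values lay above all controls. The increase was 2.30-fold (log2 fold change 1.20 ± 0.12, SE, adjusted p = 5.5e-05). *Gdf11*, whose product patterns the axial skeleton and acts through SMAD2 and SMAD3, rose 1.35-fold from 87.2 ± 3.32 to 117 ± 3.81 CPM (log2 fold change 0.43 ± 0.05, adjusted p = 0.00017). *Bmp5*, a ligand that signals through SMAD1, SMAD5 and SMAD9, was at 36.5, 30.8 and 33.2 CPM in controls and at 37.8, 41.9 and 40.2 CPM after LiCl. Its groups did not overlap but came close, and the increase was 1.19-fold (0.25 ± 0.07 on the log2 scale, adjusted p = 0.02). This call did not hold without control replicate 2 (adjusted p = 0.052), control replicate 3 (0.054), LiCl replicate 2 (0.061) or LiCl replicate 3 (0.051).

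*Bmp4*, the mesenchymal ligand of the ureter, was at 157, 172 and 161 CPM in controls and at 141, 139 and 139 CPM after LiCl. The 3 LiCl samples were close to each other and all lay below the controls. The decrease was 1.17-fold (log2 fold change -0.22 ± 0.05, adjusted p = 0.0049), and without LiCl replicates 1 and 3 the log2 fold change was -0.23 but did not pass (adjusted p = 0.094). In the GENCODE annotation of GRCm38, exons of 16 of the 54 genes overlap those of another gene, mostly on the opposite strand. *Bmp4*, *Bmp5* and *Gdf5* have such an overlap on the opposite strand, and whether the counting used strand is not given in the sources used here. *Smad5* and *Tgfbr3* overlap a gene on the same strand, which a strand setting would not separate.

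The decreases of 5 other ligand genes were larger than that of *Bmp4*. *Gdf5*, whose product is known for joint formation, was at 2.26, 1.67 and 3.13 CPM in controls and at 0.998, 0.931 and 1.06 CPM in LiCl samples, 2.36-fold lower (log2 fold change -1.24 ± 0.26, adjusted p = 0.0048). Its controls were spread widely, none of them reached down to the LiCl samples, and when LiCl replicates 1 and 3 were left out the log2 fold change was -1.33 but did not pass (adjusted p = 0.058). *Gdf10*, a ligand close in sequence to BMP3, was at 38.5, 31.1 and 30.5 CPM in controls and at 17.1, 16.4 and 17.6 CPM after LiCl. This was a 1.96-fold decrease with no overlap (log2 fold change -0.97 ± 0.09, adjusted p = 5.7e-05), so that the 2 relatives *Bmp3* and *Gdf10* moved in opposite directions. *Tgfb1*, which encodes the TGF-beta isoform that platelets and many immune cells produce, was at 17.8, 22.7 and 25.4 CPM in controls and at 9.27, 11.0 and 12.4 CPM in LiCl samples. All LiCl values lay below all controls, and the decrease was 2.02-fold (log2 fold change -1.01 ± 0.14, adjusted p = 0.00053). Of 6 macrophage markers 3 fell and 1 rose, with sums of 59.9 to 99.5 CPM in controls and 54.3 to 74.0 CPM after LiCl, and the part of these cells in the value of *Tgfb1* was not tested.

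The activin subunit genes fell together. *Inhbb* was at 3.48, 2.87 and 3.33 CPM in controls and at 1.83, 1.18 and 1.42 CPM after LiCl, with a 2.17-fold decrease (log2 fold change -1.12 ± 0.20, adjusted p = 0.002). *Inhba* was at 6.05, 5.35 and 6.98 CPM and at 3.70, 4.40 and 3.87 CPM, with a 1.54-fold decrease (-0.62 ± 0.14, adjusted p = 0.0073). Neither gene overlapped between the groups. The call of *Inhba* was lost without LiCl replicates 1 and 3 (log2 fold change -0.47, adjusted p = 0.16), whereas that of *Inhbb* remained.

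Of the ligand genes that did not pass, *Tgfb2* (log2 fold change 0.04, 95% interval -0.10 to 0.18) and *Tgfb3* (-0.07, -0.18 to 0.04) had narrow intervals around 0. *Bmp6* was at 4.00, 3.22 and 3.82 CPM in controls and at 3.60, 3.04 and 3.58 CPM after LiCl, and the groups overlapped (interval -0.45 to 0.24). *Bmp2* (interval -0.38 to 0.31) was as weakly expressed. *Gdf7* was at 7.15 ± 2.46 CPM in controls and 11.0 ± 1.73 CPM after LiCl without overlap, but its adjusted p was 0.057. *Gdf6* (log2 fold change 0.53, adjusted p = 0.13) and *Bmp7* (0.23, adjusted p = 0.078) had positive values with overlapping groups. These calls depended on the method and on single samples. With all 6 samples *Gdf7* passed as higher in DESeq2 (log2 fold change 0.64, adjusted p = 0.0093), and with no filter on low counts *Gdf7* (adjusted p = 0.00062) and *Bmp7* (0.014) did. Without control replicate 3, *Gdf6* (adjusted p = 0.031) and *Gdf7* (0.043) passed, without LiCl replicate 1, *Gdf7* (0.047) and *Bmp7* (0.023) did, and without LiCl replicates 1 and 3, *Bmp7* (0.031) did.

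**Figure D2:**
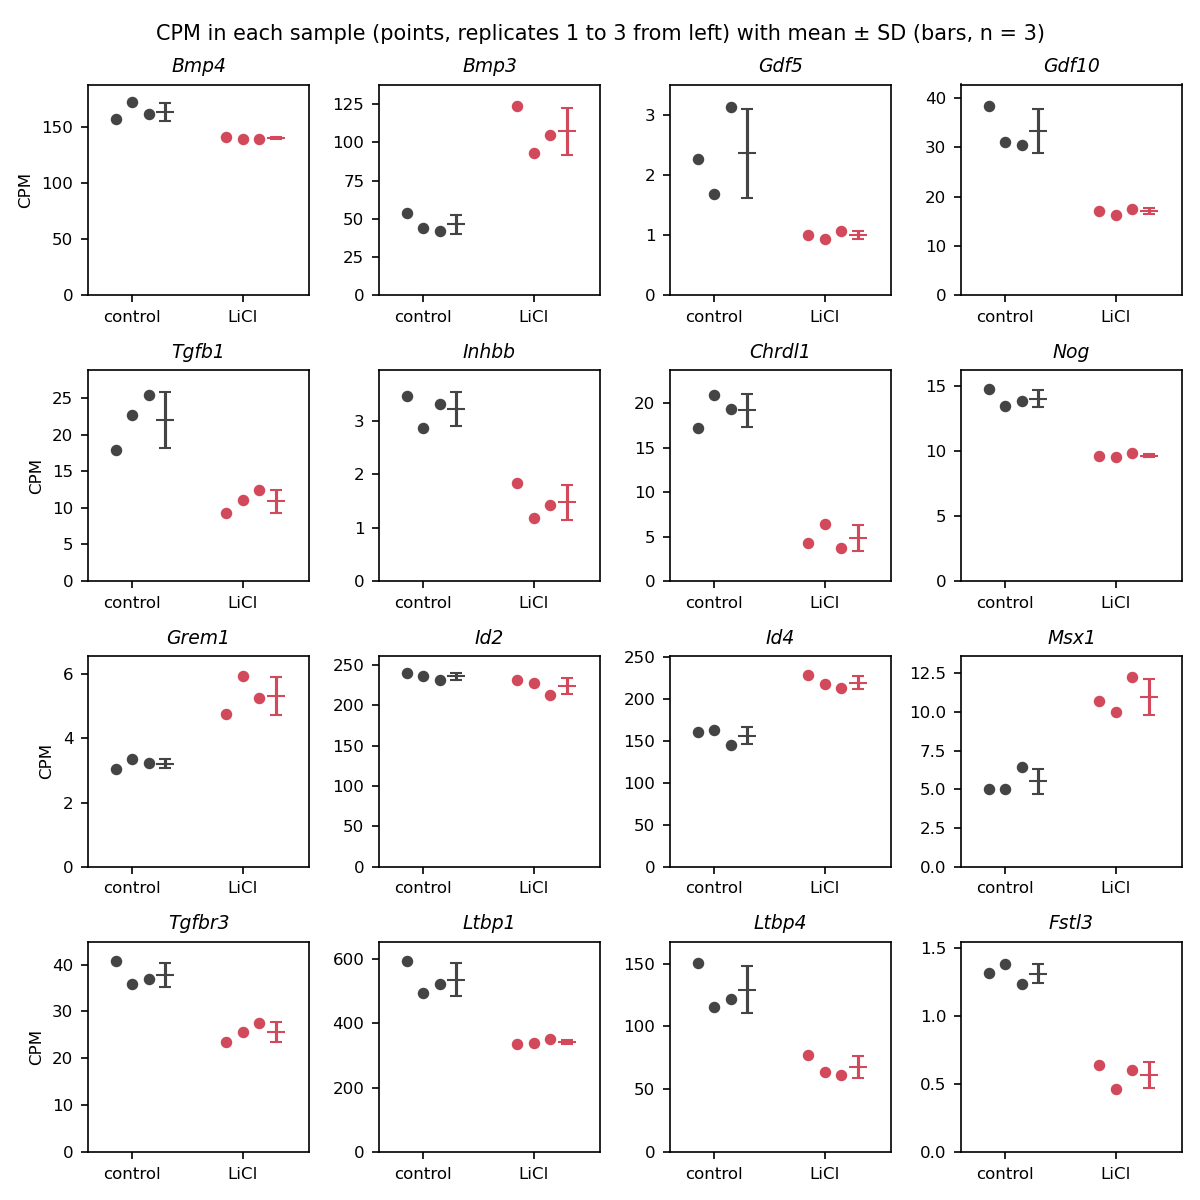
CPM (y axis, from 0) of 16 genes in each sample, with points for replicates 1 to 3 and bars for mean ± SD (n = 3); controls are grey and LiCl samples are red. The groups do not overlap in any of the 16 panels, but the gap is small for *Id2*, whose call did not pass the test (adjusted p = 0.21).

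Log2 fold changes of the 10 receptor genes lay between -0.56 and 0.17. None of them rose and 2 fell (20%), where 21.1% of all genes tested rose and 22.4% fell. *Tgfbr3*, which encodes betaglycan, a co-receptor that presents TGF-beta and binds inhibin, was at 40.7, 35.8 and 36.9 CPM in controls and at 23.4, 25.7 and 27.6 CPM after LiCl. The groups were clearly separate, with a 1.48-fold decrease (log2 fold change -0.56 ± 0.08, adjusted p = 0.00042). Exons of *Tgfbr3* overlap another annotated gene on the same strand, and its value is uncertain to that extent. *Tgfbr1*, the type I receptor of TGF-beta, was 1.12-fold lower (321 ± 4.82 to 286 ± 16.1 CPM, log2 fold change -0.17 ± 0.05, adjusted p = 0.024). That call passed in 7 of 16 alternative analyses only. Without control replicates 1 or 3 its adjusted p was 0.058 or 0.098, and without LiCl replicates 1 or 3 it was 0.078 or 0.076.

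The remaining 8 receptor genes, for type I receptors (*Bmpr1a*, *Bmpr1b*, *Acvr1*, *Acvr1b*) and type II receptors (*Bmpr2*, *Acvr2a*, *Acvr2b*, *Tgfbr2*), did not pass. Their log2 fold changes lay between -0.20 for *Bmpr2* (95% interval -0.49 to 0.09) and 0.17 for *Acvr2b* (-0.08 to 0.42) and *Tgfbr2* (0.01 to 0.33, adjusted p = 0.085, and 0.042 without LiCl replicate 2). The intervals were narrowest for *Bmpr1a* (-0.12 to 0.09) and *Acvr1* (-0.12 to 0.10), the BMP type I receptor genes with the higher levels, at 44.3 ± 1.5 and 12.7 ± 0.369 FPKM in controls. *Bmpr1b* was at 2.61 ± 0.239 FPKM, below both by more than the SDs.

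Transcripts of the intracellular mediators changed by at most 1.19-fold each. Of 8 SMAD genes 3 fell (37.5%) and none rose, where 22.4% of all genes fell and 21.1% rose. The receptor-regulated SMADs of the BMP branch were split: *Smad1* fell from 76.1 ± 2.78 to 64.8 ± 1.72 CPM (log2 fold change -0.23 ± 0.05, adjusted p = 0.0048) and *Smad9* from 40.3 ± 2.57 to 34.6 ± 0.797 CPM (-0.22 ± 0.06, adjusted p = 0.016), while *Smad5*, with a higher FPKM than both, did not pass (0.05, 95% interval -0.07 to 0.17). *Smad6*, an inhibitory SMAD that BMP signaling induces, fell from 55.7 ± 2.71 to 46.7 ± 1.74 CPM (-0.26 ± 0.06, adjusted p = 0.0055). *Smad7*, the inhibitory SMAD that also responds to TGF-beta, did not pass (-0.07, interval -0.19 to 0.04). The same held for *Smad2* (interval -0.25 to 0.05) and *Smad3* (-0.18 to 0.04) of the TGF-beta branch and for the shared *Smad4* (-0.14 to 0.08). Without LiCl replicates 1 and 3, *Smad1* (log2 fold change -0.27, adjusted p = 0.054), *Smad6* (-0.21, adjusted p = 0.13) and *Smad9* (-0.19, adjusted p = 0.2) did not pass, and *Smad9* was also lost without control replicate 1 (0.054) or LiCl replicate 3 (0.066).

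The 6 genes listed as targets did not move together. *Id4*, which encodes a helix-loop-helix protein that inhibits other such factors, was at 160, 163 and 144 CPM in controls and at 228, 217 and 212 CPM after LiCl. Each LiCl sample exceeded each control, with a 1.41-fold increase (log2 fold change 0.49 ± 0.06, adjusted p = 0.00018). *Msx1*, a homeobox gene that BMPs induce in many mesenchymes, was at 5.04, 5.02 and 6.46 CPM and at 10.7, 9.99 and 12.2 CPM. Again there was no overlap, and the increase of 1.99-fold (0.99 ± 0.13, adjusted p = 0.0004) lay just under the 2-fold minimum, where *Tgfb1* at -1.01 lay just beyond it. Without control replicate 3, LiCl replicate 1 or LiCl replicate 2 *Msx1* passed that minimum too (log2 fold changes of 1.13, 1.01 and 1.06), which makes 2 genes higher by the 2-fold rule.

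*Id1*, *Id2*, *Id3* and *Msx2*, which are induced by BMP signaling in many cell types, did not pass. *Id2* was at 241, 236 and 232 CPM in controls and at 231, 228 and 213 CPM after LiCl, with all LiCl samples just below the controls (log2 fold change -0.08, 95% interval -0.18 to 0.03). *Msx2* was at 11.2, 10.2 and 8.81 CPM and at 9.81, 9.95 and 8.30 CPM, and the groups overlapped, unlike those of its relative *Msx1* (interval -0.37 to 0.17). *Id3*, which shared the highest level of the 54 genes in controls with *Fstl1* (200.3 ± 15.0 and 192 ± 3.18 FPKM), had an interval from -0.13 to 0.12. *Id1* was 1.11-fold higher without overlap, but its adjusted p was 0.051, and it passed in 5 of 16 alternative analyses, for example without control replicate 1 (0.031). The exons of *Id4* overlap 2 annotated noncoding genes on the opposite strand, and its value is uncertain to that extent.

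**Figure D3:**
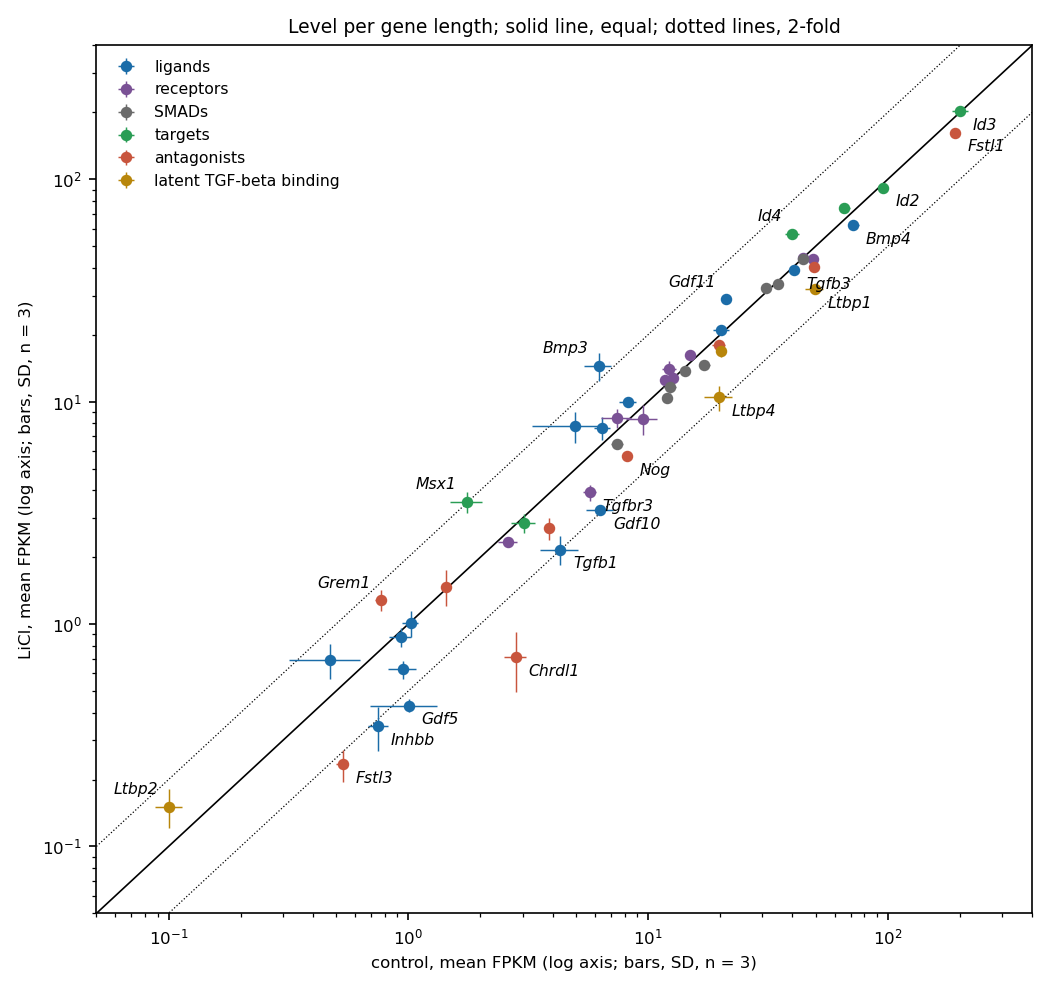
Mean FPKM in LiCl samples (y axis) against mean FPKM in controls (x axis) for the 53 genes, both on log axes, with bars for the SD (n = 3), a solid line for equal levels and dotted lines for 2-fold changes. The most abundant genes, *Id3* and *Fstl1*, lie near the solid line, and the genes beyond the dotted lines have at most 6.22 FPKM in controls.

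The antagonists included the gene with the largest decrease of the 53. Of 9 antagonist genes, 6 fell (66.7%), 1 rose (11.1%) and 2 did not pass, where 22.4% of all genes fell and 21.1% rose. The FPKM of the 9 summed to 274 to 283 in controls and to 231 to 235 after LiCl. Most of each sum was *Fstl1*, at 192 ± 3.18 FPKM in controls and 162 ± 1.71 FPKM after LiCl, so that the sums say little about the weaker antagonist genes. *Chrdl1*, which encodes a Chordin-like protein that binds BMP4, was at 17.2, 21.0 and 19.4 CPM in controls and at 4.31, 6.44 and 3.65 CPM after LiCl. The highest LiCl value was far below the lowest control, and the decrease was 4.00-fold (log2 fold change -2.00 ± 0.18, adjusted p = 3.7e-05). *Chrd*, which encodes Chordin, was at 24.2, 24.9 and 24.0 CPM and at 17.2, 14.9 and 18.5 CPM, 1.45-fold lower without overlap (-0.53 ± 0.08, adjusted p = 0.00091). *Nog*, which encodes Noggin, was at 14.7, 13.4 and 13.8 CPM and at 9.56, 9.52 and 9.79 CPM. Its LiCl samples lay close together below the controls, also with a 1.45-fold decrease (-0.54 ± 0.08, adjusted p = 0.00082).

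*Grem1*, whose product Gremlin binds BMP2 and BMP4, went the other way. It was at 3.06, 3.35 and 3.23 CPM in controls and at 4.76, 5.94 and 5.25 CPM after LiCl, 1.65-fold higher without overlap (log2 fold change 0.72 ± 0.14, adjusted p = 0.0027). In FPKM it remained far below *Nog*, at 0.766 ± 0.0396 in controls and 1.28 ± 0.142 after LiCl, where *Nog* was at 8.16 ± 0.336 and 5.68 ± 0.0985. *Twsg1*, which encodes a modulator that binds both BMPs and Chordin, was 1.24-fold lower (258 ± 11.9 to 208 ± 7.17 CPM, -0.31 ± 0.05, adjusted p = 0.0011).

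The follistatin group was divided. *Fstl3*, which encodes a secreted inhibitor of activin, was at 1.32, 1.39 and 1.24 CPM in controls and at 0.644, 0.465 and 0.603 CPM after LiCl. The groups were separate and the decrease was 2.29-fold (log2 fold change -1.20 ± 0.24, adjusted p = 0.0038), at 38, 43 and 38 counts against 20, 13 and 17. *Fstl1*, a related matrix glycoprotein, was far more abundant and fell 1.20-fold from 952 ± 20.4 to 797 ± 7.88 CPM (-0.26 ± 0.04, adjusted p = 0.00065). *Fst*, which encodes Follistatin itself, did not pass (0.02, 95% interval -0.30 to 0.34), nor did *Bambi*, which encodes a pseudoreceptor (-0.14, interval -0.27 to -0.02, adjusted p = 0.066, and 0.042 without control replicate 1). *Chrd* and *Fstl3* each overlap exons of a coding gene on the opposite strand, which leaves their values uncertain if the counting did not use strand.

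Of the latent TGF-beta binding proteins, 3 of 4 genes fell, where 22.4% of all genes did. *Ltbp1* was at 592, 493 and 523 CPM in controls and at 337, 340 and 351 CPM after LiCl, with a 1.56-fold decrease (log2 fold change -0.64 ± 0.07, adjusted p = 7.4e-05). *Ltbp4*, whose product also takes part in elastic fibre assembly, was at 150, 115 and 122 CPM and at 77.5, 63.7 and 61.3 CPM, with a 1.91-fold decrease (-0.94 ± 0.11, adjusted p = 0.00021). Control replicate 1 was the highest control in both genes, and no LiCl sample reached any control. *Ltbp3* fell 1.21-fold from 185 ± 6.17 to 153 ± 9.34 CPM (-0.27 ± 0.06, adjusted p = 0.0036), with exons that overlap a coding gene on the opposite strand. *Ltbp2*, the member that binds no latent TGF-beta, was at 0.832 ± 0.111 CPM in controls and 1.23 ± 0.247 CPM after LiCl and did not pass (0.57, 95% interval -0.01 to 1.14, adjusted p = 0.1).

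Because FPKM values are per gene length, the share of each gene in its family could be followed across the samples. *Bmp4* held 53.8, 58.7 and 54.9% of the FPKM of the BMP and GDF ligands in the controls and 45.9, 45.0 and 45.1% in the LiCl samples. *Bmp3* held 4.33 to 5.58% in controls and 9.15 to 12.2% after LiCl, *Gdf11* held 15.8 to 17.0% and 20.4 to 21.7%, and *Gdf10* held 4.48 to 5.69% and 2.29 to 2.45%. The shares of the groups did not overlap in these 4 genes, which the test on counts had already called. Nor did they overlap for *Gdf5* (0.554 to 1.03% and 0.292 to 0.333%), which was also called. For *Gdf7* (2.33 to 4.71% and 4.81 to 6.55%) they came close without overlap, but that gene did not pass the test on counts. Shares of *Bmp2*, *Bmp5*, *Bmp6*, *Bmp7*, *Bmp8a* and *Gdf6* overlapped. Within a family the shares are tied to one another, so that a lower share of *Bmp4* by itself raises the others. Within the TGF-beta ligands the share of *Tgfb1* was 5.25 to 7.77% in controls and 2.84 to 4.00% after LiCl, with *Tgfb3* between 61.5 and 64.0% in all 6 samples. *Id4* held 9.60 to 10.3% of the 4 *Id* genes in controls and 13.0 to 13.9% after LiCl, and *Id2* was at 22.8 to 24.4% and 21.1 to 22.2%. Among the LTBP genes, the share of *Ltbp4* was 21.3 to 23.3% and 15.9 to 19.5%, and that of *Ltbp3*, which fell least of the 3 called, was 21.1 to 23.5% and 27.4 to 29.0%. Shares of 3 samples against 3 cannot reach an exact permutation p below 0.1, and they are given without a test.

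**Figure D4:**
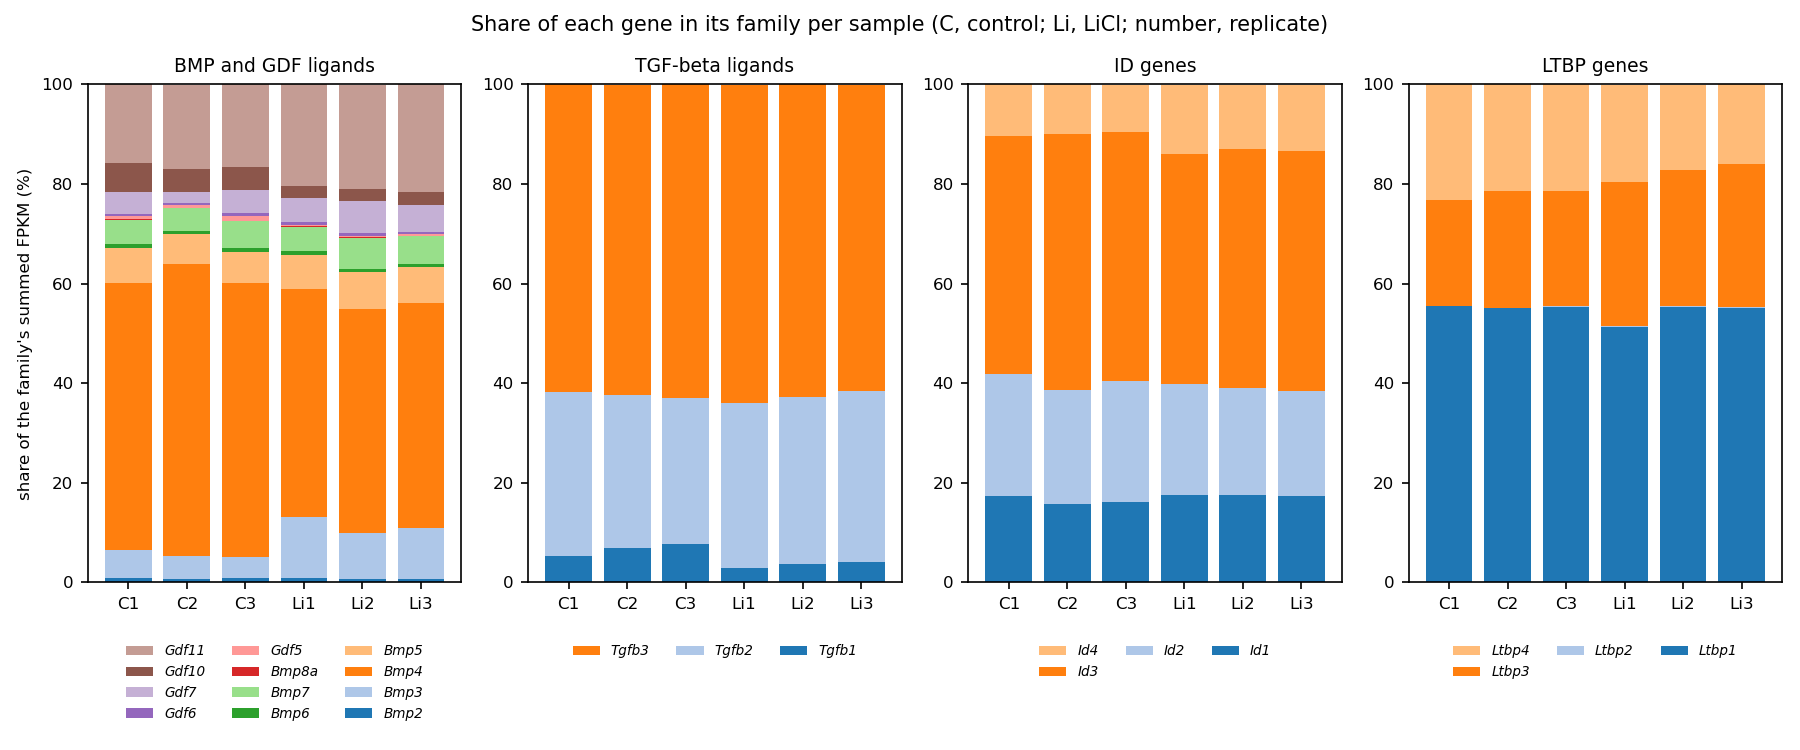
Share of each gene in the summed FPKM of its family (y axis, percent) in each of the 6 samples (x axis; C, control; Li, LiCl), for the BMP and GDF ligands, the TGF-beta ligands, the *Id* genes and the LTBP genes. *Bmp4* takes 53.8 to 58.7% of the first family in controls and 45.0 to 45.9% after LiCl, while *Bmp3* and *Gdf11* take more after LiCl.

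Other genes of both pathways were listed from general knowledge, with earlier results of these data known. Of 98 such genes 81 were tested, of which 30 fell (37.0%), 12 rose (14.8%) and 39 did not pass. By the same rule 22.4% of all genes fell and 21.1% rose. Their median log2 fold change was -0.22. The genes for processing, activation or matrix binding of ligands, listed as 1 group, had the lowest median (-0.40): 9 of 18 fell (50%) and none rose. Among them *Dcn*, whose product Decorin binds TGF-beta, fell 3.12-fold (log2 fold change -1.64 ± 0.12, adjusted p = 9.3e-06), and *Fmod*, which encodes the related Fibromodulin, fell 2.27-fold (-1.19 ± 0.13, adjusted p = 0.00014). The other secreted antagonists were mixed, with 4 of 14 higher (28.6%) and 5 lower (35.7%). *Nbl1*, which encodes an antagonist of the DAN family to which Gremlin belongs, was at 23.8, 27.6 and 23.5 CPM in controls and at 61.6, 61.4 and 61.9 CPM after LiCl (1.30 ± 0.07, adjusted p = 1.5e-06). *Vwc2* (-1.37, adjusted p = 0.00084) and *Smoc2* (-1.16, adjusted p = 4.8e-06) fell.

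Of 21 other commonly used targets, 11 fell (52.4%), 5 rose (23.8%) and 5 did not pass, where 22.4% of all genes fell and 21.1% rose. *Ccn2*, a gene that TGF-beta induces in many cells, was at 23.4, 26.0 and 22.4 CPM in controls and at 5.44, 8.52 and 8.76 CPM after LiCl, 3.17-fold lower (log2 fold change -1.66 ± 0.16, adjusted p = 5e-05). Every LiCl sample lay below every control. *Tbx20*, a T-box gene, fell 2.18-fold (-1.12 ± 0.26, adjusted p = 0.0079, and -0.91 with an adjusted p of 0.069 without LiCl replicates 1 and 3), and *Gata6*, which encodes a zinc finger factor, fell 1.16-fold (-0.22 ± 0.06, adjusted p = 0.012).

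The rest of the list comprised other ligands, receptors and co-receptors, and intracellular regulators. Of the other ligands only 4 of 16 were expressed enough to be tested: *Inha*, the inhibin alpha subunit gene, fell 2.09-fold (log2 fold change -1.07 ± 0.12, adjusted p = 0.00012), as did the activin subunit genes above, and *Gdf15*, a stress-induced distant member of the family, rose from 3 to 19 counts per control to 40 to 48 counts per LiCl sample (1.89 ± 0.45, adjusted p = 0.0085). Without LiCl replicates 1 and 3 the log2 fold change of *Gdf15* was 1.91 but did not pass (adjusted p = 0.073). Among 6 tested receptors and co-receptors *Eng*, which encodes the endothelial co-receptor Endoglin, alone was called (0.31 ± 0.09, adjusted p = 0.023). Its adjusted p was 0.076 or 0.067 without control replicates 1 or 2 and 0.088 without LiCl replicate 3, and 8 endothelial markers summed to 540 to 683 CPM in controls and 497 to 612 CPM after LiCl. Among 18 intracellular regulators 1 rose (5.56%), the SMAD corepressor gene *Ski* (0.27, adjusted p = 0.0014). In this group 4 genes fell (22.2%, near the 22.4% of all genes), with the largest decrease for the ubiquitin ligase gene *Nedd4l* (-0.47, adjusted p = 0.00021).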

How the data were processed

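RNA was sequenced from 3 control and 3 LiCl samples. The authors deposited raw counts per gene for the 6 samples and FPKM values per sample. According to the submitters' processing notes, reads were filtered with fastp 0.23, aligned with STAR 2.7 to GRCm39 and counted with featureCounts 2.0, whereas the methods of the paper name HISAT2 as the aligner. The annotation release and the strand setting are not given in the sources used here. The deposited FPKM values equal the counts divided by a size factor and a gene length (within 0.1% for 100% of the 13480 genes with more than 50 counts in every sample).

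The 54 genes and all other lists were chosen with earlier results of these data known. Symbols came from GENCODE vM21 and were found for 52073 of 56748 identifiers; the others held 0.191% of the counts. For LiCl against control, edgeR 4.0.16 (R 4.3.3) was run on the deposited counts with its quasi-likelihood F test after filterByExpr and TMM, without covariates, and p-values were adjusted by Benjamini and Hochberg over all tested genes. An adjusted p under 0.05 made a call, and the 2-fold rule asked in addition for a log2 fold change above 1 or below -1. SEs are the coefficient divided by the root of F, and CPM are counts relative to the TMM-scaled library size. Values per sample are given for called genes with a log2 fold change of at least 0.5 in size and for *Bmp4*, *Bmp5*, *Bmp6*, *Id2*, *Id4*, *Msx2* and *Ltbp1*, which the study followed in other experiments. Of the other pathway genes, those past the 2-fold rule, the largest rise and fall of each list, *Gata6* and *Fmod* are named, except genes that are not reported here. Between samples of a group, chi-square over the degrees of freedom was 5.51 to 13.2, above sampling noise, and no sample was treated as a copy. The test was also run on simulated counts with the same dispersion for every gene, which do not measure how it performs on these data. The alternatives comprised RLE size factors, DESeq2 1.42.0, library size only, other filters, a replicate block, each replicate left out and limma 3.58.1 on log2(FPKM + 1) or log2(FPKM + 0.1), with and without a minimum mean of 0.5 FPKM. Leaving out both LiCl samples with skeletal muscle transcripts was added after the data were seen.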

Additional observations from a re-analysis of the deposited data

How the results depend on the processing

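No called change of the 53 genes reversed its direction in any of the 16 alternative analyses, and 18 of the 26 calls passed in all of those in which the gene was tested. The number of genes higher by the 2-fold rule was 1 and became 2 with RLE size factors, with DESeq2 and with no filter on low counts, since *Msx1* lies at the minimum, and it was 1 to 2 when each replicate was left out in turn. With no filter, 10 genes were higher at an adjusted p under 0.05 in place of 6 (*Bmp7*, *Gdf7*, *Tgfbr2* and *Id1* were added), against 5 to 8 with a replicate left out, and 18 to 20 were lower. The number lower by the 2-fold rule went from 5 to 1 with limma on log2(FPKM + 1), with and without the filter, and to 2 on log2(FPKM + 0.1). These scales compress the changes of weakly expressed genes, and with the minimum mean *Fstl3* was not among the 51 genes tested. The same number was 4 with DESeq2 and with no filter on low counts, 6 with library size only, and 4 to 6 with a replicate left out. Leaving out both LiCl samples with skeletal muscle transcripts, which leaves 1 LiCl sample, gave 13 lower pathway genes and, of all genes, 2014 higher and 2117 lower; across single replicates left out these were 3088 to 3622 and 3155 to 3644. Deviations from the group means correlated at 0.03, -0.09 and 0.10 between samples with the same replicate number, and at -0.13 to 0.09 between samples with different numbers. Because these ranges are alike, the correlations cannot decide whether the numbers pair the samples by litter or culture. With the replicate block 6 genes were higher and 19 lower, 24 of the 26 calls were shared, *Bmp5* (adjusted p = 0.053) and *Tgfbr1* (0.05) were lost and *Tgfbr2* (0.041) was gained. Total counts were alike in both groups, and depth limits mainly genes with few counts such as *Bmp8a*, *Ltbp2* and *Fstl3*.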
